A study of Mus musculus with 6 samples.

Results

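Histone genes were followed in neutrophils from the peritoneum of cGAS-/- mice, with and without lipopolysaccharide (LPS, an outer membrane component of Gram-negative bacteria that activates neutrophils). The members were the genes whose symbol begins with H1f, H2ac, H2bc, H3c, H4c, H2af, H2az or H3f, or with the older prefixes Hist1h to Hist4h, and 78 of the 38739 genes in the table met this rule. By gene type and symbol they were 65 replication-dependent histone genes, 8 genes of histone variants, 4 pseudogenes and 1 antisense RNA. All 6 samples came from C57B/L6 mice with a knockout of cGAS, the enzyme that senses DNA in the cytosol, so no wild-type neutrophils stood beside them. The mice were males 8 weeks old by the methods, received 3% thioglycolate in the peritoneum and were lavaged 2 h later, with no sorting step named. The 3 untreated samples were kept in medium for 2 h and the 3 LPS samples in medium with LPS for 2 h, at a dose given as 500 ng/mL in the sample labels and as 100 ng/mL in the sequencing methods. The comparison asks how the RNA of cGAS-/- neutrophils responds to LPS.

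Histones package DNA into nucleosomes, each built on an octamer of the core histones H2A, H2B, H3 and H4, and linker histones of the H1 family bind the DNA between them. The replication-dependent genes lie in clusters, are transcribed mainly in S phase, and give short mRNAs that end in a conserved stem-loop in place of a poly(A) tail. Variant genes such as those of H3.3 and H2A.Z are transcribed throughout the cell cycle, are spliced and are polyadenylated, and they supply histones in cells that no longer divide. Mature neutrophils do not divide, and when they release extracellular traps their chromatin is cast out together with the histones bound to it.

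The stem-loops of the members with the clearest values are shown first, because they mark where the mature mRNA of each gene normally stops, and much of what follows turns on genes that are annotated past this point. Of the 64 replication-dependent members with a GENCODE match, 60 had a stem-loop within 200 bases of a stop codon, from 21 to 58 bases after it, and these used 6 distinct sequences. A fixed pattern with few variable bases was searched, so it limits the number of sequences, and stem-loops that depart from it were not found. The letters were read from GRCm39, with the stem in capitals and the loop in lower case:
H1f2, chr13:23923495-23923510, plus strand: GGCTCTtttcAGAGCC
H2ac18, chr3:96153348-96153363, plus strand: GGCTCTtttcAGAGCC
H2ac19, chr3:96147100-96147115, minus strand: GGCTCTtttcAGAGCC
H2bc23, chr13:21993916-21993931, minus strand: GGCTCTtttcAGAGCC
H4c9, chr13:22225136-22225151, minus strand: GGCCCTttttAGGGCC
The sequence of the first 4 was found in 39 members, across H1, H2A, H2B and H3, whereas the H4 genes had stems of their own.

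The 150 bases before the start of 3 of these genes are given as RefSeq holds them on GRCm38.p6, because H2ac18 and H2ac19 resemble each other there too. Capitals mark CCAAT on either strand (CCAAT or ATTGG), and TATAAA, searched on both strands as well, was not met in these stretches:
H1f2, chr13:23738657-23738806, plus strand: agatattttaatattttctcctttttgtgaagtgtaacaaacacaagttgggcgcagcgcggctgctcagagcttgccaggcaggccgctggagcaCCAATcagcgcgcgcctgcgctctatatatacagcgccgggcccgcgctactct
H2ac18, chr3:96245347-96245496, plus strand: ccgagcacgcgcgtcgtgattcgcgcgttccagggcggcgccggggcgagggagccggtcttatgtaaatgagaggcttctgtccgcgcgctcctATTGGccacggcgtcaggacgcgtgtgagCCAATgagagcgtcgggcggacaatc
H2ac19, chr3:96240375-96240524, minus strand: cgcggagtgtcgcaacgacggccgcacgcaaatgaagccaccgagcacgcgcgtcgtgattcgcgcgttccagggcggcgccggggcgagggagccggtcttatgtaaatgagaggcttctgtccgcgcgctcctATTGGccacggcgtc
The H2ac18 and H2ac19 stretches shared a run of 110 identical bases, which began 150 bases before the start of H2ac18 and 110 bases before that of H2ac19. The windows of 150 bases cut this run at both ends, so the shared sequence may be longer. In windows from 250 bases before to 50 bases after the start, CCAAT on either strand was found in 51 of 59 promoters of replication-dependent members (86.4%), in 6 of 7 of variant members (85.7%) and in 37.4% of all 32851 promoters. TATAAA on either strand was found in 34 of the 59 (57.6%), in 2 of the 7 (28.6%) and in 13.6% of all. Such letters describe the window and do not show that a factor binds there.

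The values are scaled TPM, a measure of transcript abundance corrected for length, which was scaled sample by sample, and the read depth behind them is unknown. Their sum over the table was 603599 to 713384 in the untreated and 404675 to 465904 in the LPS samples, genes above 0 numbered 15419 to 15800 and 16148 to 19191, and protein-coding genes held 21.0% to 28.3% and 49.7% to 58.9% of the sum, so the groups did not overlap in any of these. *Cgas* itself was at 0.180 to 0.307 in the untreated and 0.0286 to 0.184 in the LPS samples. The summed level of 9 neutrophil markers, of 11 listed, was 9490 to 27000 in the untreated and 14800 to 49600 in the LPS samples. This sum was made up mostly of *S100a8* and *S100a9*. *Csf3r* was lower with LPS, at 251, 345 and 525 untreated and at 138, 233 and 188 with LPS. So was *Cxcr2*, at 39.4, 120 and 100 untreated and at 7.10, 23.6 and 8.70 with LPS. *Ltf* was lower in every LPS sample too, and in the other neutrophil markers the groups overlapped. Markers of B cells were present as well (4 of 5 in the table, 142 to 542 and 66.7 to 236), with *Cd79a* at 457, 27.4 and 187 untreated and at 134, 36.6 and 125 with LPS. The 5 macrophage markers in the table, mostly *Cd68*, summed to 163 to 187 and 237 to 383. The 4 erythroid markers summed to 16.3 to 1710 and 90.1 to 2550, and the defining eosinophil marker *Epx* was at 0 in all 6 samples.

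Among the replication-dependent members, 20 were listed at 0 in all 6 samples, 45 were above 0 in at least 1 sample and 8 were above 0 in all 6. Only 7 had a mean over the 6 samples of at least 5. They were the H2A genes *H2ac19* and *H2ac18*, the linker histone gene *H1f2*, and the H2B genes *H2bc4*, *H2bc23*, *H2bc3* and *H2bc24*. No H3 or H4 gene of this class reached that level. Among the variants, *H3f3a*, *H3f3b*, *H2az1* and *H2az2* had a mean of at least 5. The deposited value of a gene with several transcripts is an average over them, so a mean of at least 5 is a limit on the listed value, and levels are compared between genes only where each has 1 annotated transcript, as *H1f2*, *H2ac18* and *H2ac19* do. The plot of the members by sample shows both classes.

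**Figure D1:**
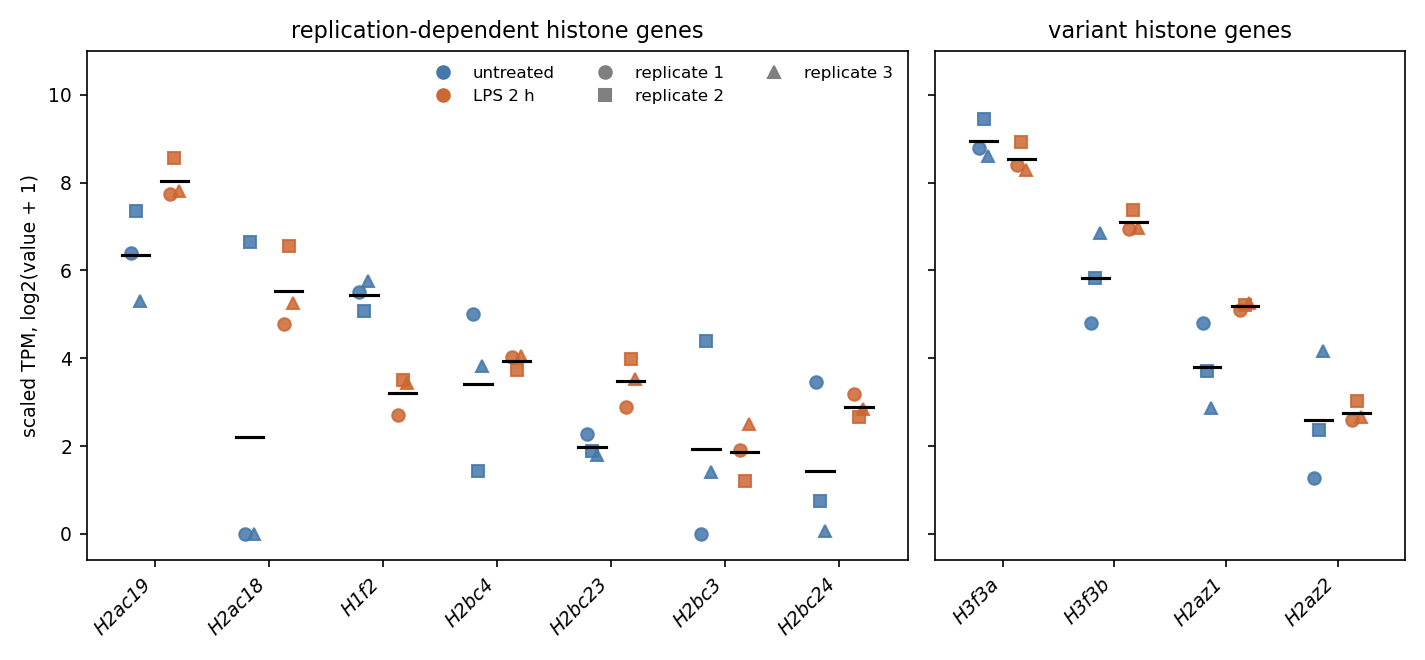
Scaled TPM on the scale log2(value + 1) in each of the 6 samples for the 11 histone genes with a mean of at least 5 (left, replication-dependent; right, variant). Points are samples (blue untreated, orange LPS for 2 h, shape by replicate) and black bars are means of the log2 values in each group of 3; *H1f2* is the gene whose LPS samples all lie below the untreated ones, while those of *H2ac19*, *H2bc23*, *H3f3b* and *H2az1* all lie above.

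Each of the 55 members above 0 in at least 1 sample was tested for LPS against untreated together with all 23049 such genes, with limma on log2(value + 1). A gene was called at an unadjusted p under 0.01 with a log2 fold change beyond 2 in either direction, and Benjamini-Hochberg adjusted p under 0.05 was a second rule. *H1f2* was called lower, the single member called by either rule, 1 of 55 beside 1.31% of all genes tested under the first rule and 0.946% under the second (2.99% and 1.84% in either direction). No member was called higher by limma, beside 1.69% and 0.894% of all genes. At an unadjusted p under 0.05, 5 members were higher (10.3% of all genes) and 1 was lower (6.66%). The labels do not say whether the samples of a group came from separate mice, so these p-values measure the spread between samples, which may be technical.

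*H1f2* encodes the linker histone H1.2, a somatic H1 protein that binds nucleosomes at the entry of their DNA. It is a gene of 1560 bases with 1 transcript on GRCm39 (chr13:23922791-23924350, plus strand). Its value was 44.3, 33.0 and 53.0 in untreated replicates 1 to 3 and 5.50, 10.4 and 9.86 in LPS replicates 1 to 3. Every LPS sample was below every untreated sample. The mean fell from 43.4 ± 10.0 to 8.57 ± 2.67 (SD, n = 3 each), a 5.06-fold lower level with LPS. On the log2(value + 1) scale the gene fell by 2.23 (SE 0.36, adjusted p = 0.0463 by limma). In bulk RNA, fewer cells that carry a transcript and less of it per cell cannot be told apart.

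No other gene shared a near-identical stretch with *H1f2* (95% identity or more over at least 150 bases), whereas 47 of the 55 tested members had at least 1 such gene. Its annotated transcript runs 840 bases past the stem-loop. The summed B cell markers were 542, 142 and 406 untreated and 236, 66.7 and 224 with LPS, and their part in the fall of *H1f2* was not tested. The direction was the same in all 15 alternative fits, with log2 fold changes from -2.71 to -1.83, but the adjusted p stayed under 0.05 in only 6 of the 15 and was 0.127 with a replicate block. The fold limit was no longer passed without LPS replicate 1 (-1.97, adjusted p = 0.161, from a range of 0.0216 to 0.173 over the alternatives). It was also not passed with a pseudocount of 5 (-1.83, adjusted p = 0.0477).

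The other H1 genes were low. *H1f4* (H1.4) was listed at 0, 0 and 1.65 untreated and at 0.415, 0.749 and 1.23 with LPS, and *H1f3* was at most 0.274 in any sample. The 3 remaining replication-dependent H1 genes were listed at 0 throughout.

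*H2ac19* and *H2ac18* encode core histone H2A and lie 5.22 kb apart in the small cluster on chromosome 3, facing away from each other (chr3:96147065-96147592, minus strand, and chr3:96152813-96153398, plus strand). Their transcripts are identical over 528 bases, the whole length of that of *H2ac19*, so reads within that stretch cannot tell them apart, and only 58 of the 586 bases of *H2ac18* lie outside it. *H2ac19* was at 83.3, 162 and 38.3 untreated and at 212, 378 and 223 with LPS, and the groups did not overlap. *H2ac18* was listed at 0, 99.6 and 0 untreated and at 26.5, 92.9 and 37.0 with LPS. Neither passed either rule, with log2 fold changes of 1.69 (SE 0.58, unadjusted p = 0.0262, adjusted p = 0.212) for *H2ac19* and 3.31 (SE 1.86, adjusted p = 0.426) for *H2ac18* by limma.

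The sum of these H2A genes, which depends little on how their shared reads were split, was 83.3, 261 and 38.3 untreated and 238, 471 and 260 with LPS. Untreated replicate 2 lay above LPS replicates 1 and 3, so the sums overlapped, with means of 128 ± 118 and 323 ± 129 (SD, n = 3 each). The summed neutrophil markers, mostly *S100a8* and *S100a9*, were highest in the same replicate number of each group. They were 9744, 27000 and 9486 untreated and 17280, 49610 and 14800 with LPS, and their part in the level of the H2A genes was not tested. Without untreated replicate 2 each gene passed the first rule, *H2ac19* at 2.19 (adjusted p = 0.0958, range over alternatives 0.0958 to 0.419) and *H2ac18* at 5.53 (adjusted p = 0.0302, range 0.0302 to 0.814), the latter against untreated samples listed at 0. Long noncoding RNA genes of this cluster hold the same 528 bases. *Gm20632*, on the opposite strand of *H2ac19*, was at 1.24, 3.36 and 0.816 untreated and at 7.99, 9.84 and 8.04 with LPS. *Gm20634*, which overlaps *H2ac18* on its own strand, was listed at 0, 2.22 and 0.374 untreated and at 5.49, 12.2 and 5.54 with LPS, and passed the first rule (2.33, SE 0.56, adjusted p = 0.103 by limma). The strand setting of the quantification is not given in the sources used here, so reads of these genes and of the H2A genes may be mixed.

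**Figure D2:**
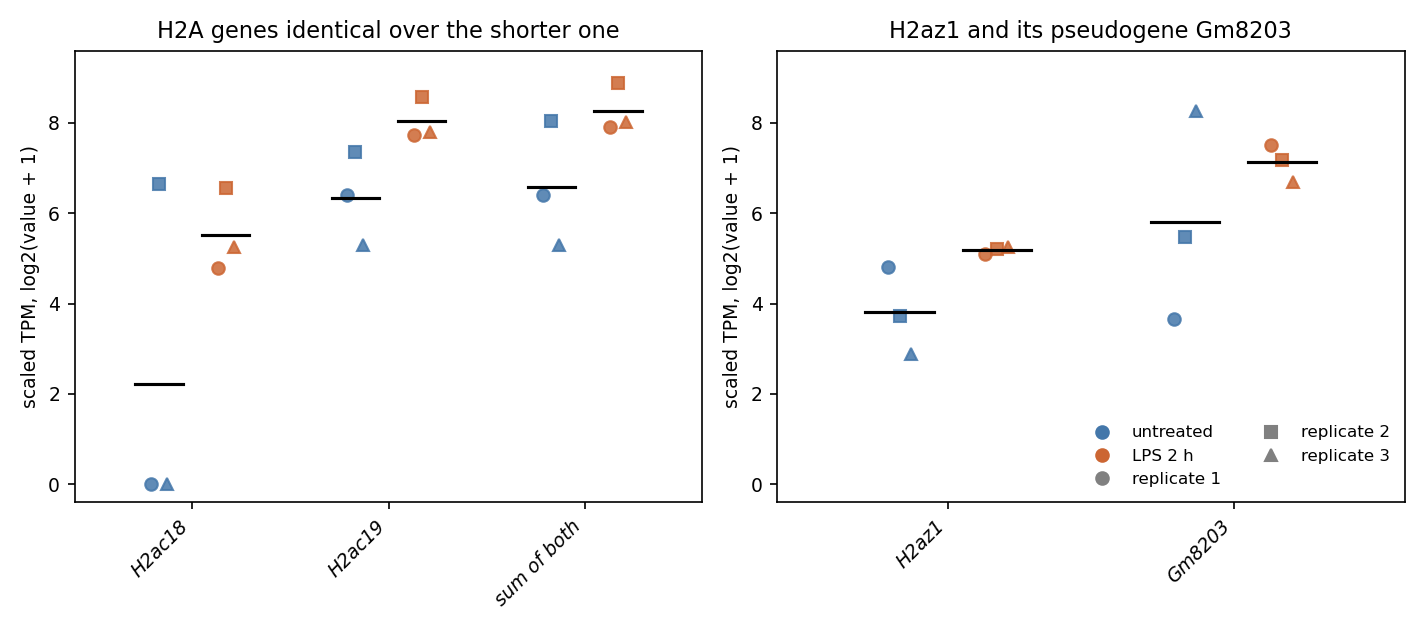
Scaled TPM on the scale log2(value + 1) in each sample for *H2ac18*, *H2ac19* and their sum (left), and for *H2az1* and its pseudogene *Gm8203* (right), whose values are not on one scale. Points are samples (blue untreated, orange LPS for 2 h, shape by replicate) and bars are means of the log2 values in each group of 3; *H2ac19* and *H2az1* each separate the groups, while *H2ac18*, the sum on the left and *Gm8203* do not.

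Outside this pair the H2A class was close to 0. The other 9 H2A genes above 0 in any sample had means of at most 0.861, the value of *H2ac23*, and 7 were listed at 0 throughout. *H2ac24* was listed at 0.00348, 0 and 0 untreated and at 0.674, 0 and 2.09 with LPS, and *H2ac4* at 0, 0 and 2.80 untreated and at 0.561, 0 and 0 with LPS. These scattered values gave no called gene.

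H2B was the family with the most genes above 0, 14 of 17. *H2bc23* was at 3.85, 2.70 and 2.46 untreated and at 6.46, 14.8 and 10.6 with LPS, with means of 3.01 ± 0.743 and 10.6 ± 4.19 (SD, n = 3 each). Its groups did not overlap, and the log2 fold change was 1.49 (SE 0.38, adjusted p = 0.115 by limma), under the fold limit. *H2bc24* is 99.8% identical to it over 2015 bases. Its value was 10.1, 0.682 and 0.0493 untreated and 8.16, 5.37 and 6.14 with LPS, where untreated replicate 1 lay above every LPS sample (log2 fold change 1.47, SE 0.89, adjusted p = 0.463). Without that sample it passed the first rule (2.49, adjusted p = 0.0591, range over alternatives 0.0591 to 0.853). The sum of *H2bc23* and *H2bc24*, each with 3 annotated transcripts, was 13.9, 3.38 and 2.51 untreated and 14.6, 20.2 and 16.7 with LPS, so the groups did not overlap by a narrow margin.

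*H2bc4* was at 31.3, 1.70 and 13.1 untreated and at 15.2, 12.3 and 15.6 with LPS (log2 fold change 0.51, SE 0.89, adjusted p = 0.768). The untreated samples spread 18.4-fold from lowest to highest and the LPS samples 1.27-fold. *H2bc3* was listed at 0, 20.1 and 1.64 untreated and at 2.79, 1.32 and 4.64 with LPS, so its level rested on 1 sample. *H2bc6* was at 1.22, 1.97 and 7.88 untreated and at 1.13, 2.61 and 1.91 with LPS. *H2bc8* was listed at 0 in the untreated samples and at 0, 1.60 and 4.23 with LPS. Stretches of 95% identity or more were shared with 12 other H2B genes by *H2bc4*, with 10 by *H2bc6* and by *H2bc8*, and with 2 by *H2bc3*. Counting genes of any family, *H2bc3* and *H2bc4* each had 27 such genes, many of them H2A genes in the opposite orientation. *H2bc3* also overlaps the pseudogene *H2ac5-ps*, identical over 172 bases in the opposite orientation, which was highest in untreated replicate 2 as well. Reads may have been split among all these genes.

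H4 and H3 genes were low. *H4c9* was listed at 0 without LPS in each of 3 samples and at 1.62, 1.59 and 5.12 with LPS (log2 fold change 1.79, SE 0.43, adjusted p = 0.102 by limma). It missed the fold limit on log2(value + 1) and passed it with a pseudocount of 0.1 (4.63, adjusted p = 0.0353, range over alternatives 0.0353 to 0.217), since a gene listed at 0 has no fold change without a pseudocount. *H4c12* was listed at 7.11 in untreated replicate 2 and at 0 in the 5 other samples, the largest negative fold change of the class after *H1f2* and one that rests on a single sample. *H4c17* was listed at 3.69, 0 and 2.46 untreated and at 0, 6.97 and 0 with LPS. Of the H3 genes, *H3c3* had the highest listed mean, with values of 1.66, 1.44 and 0.607 untreated and of 1.29, 1.88 and 3.60 with LPS. *H3c14*, listed at 0 in all samples, is identical over 1825 bases to *Gm20634*, the long noncoding RNA gene that overlaps it on the same strand. *H3c15* is 99.9% identical to *Gm20634* over 669 bases, so reads of these genes may be mixed. *H3c4* was listed at 0 in the untreated samples and at 0.0941, 0.309 and 0.193 with LPS, groups that do not overlap at a level near 0 (log2 fold change 0.26, SE 0.07, adjusted p = 0.142 by limma).

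**Figure D3:**
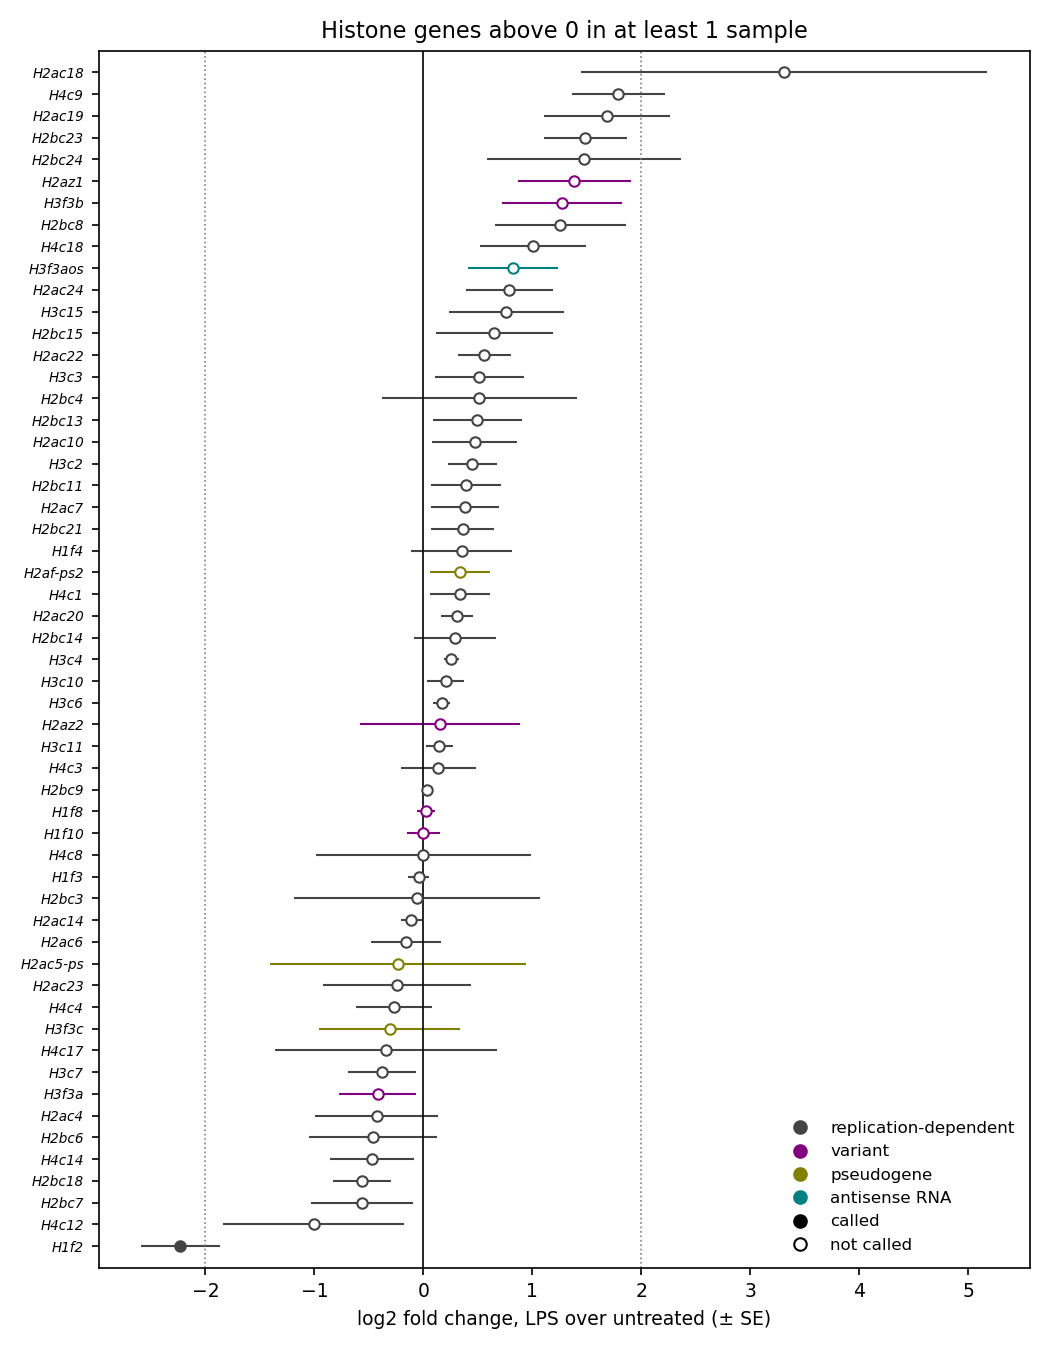
Log2 fold change of LPS over untreated with its standard error (horizontal bars) for the 55 histone genes above 0 in at least 1 of 6 samples, ordered by size and coloured by class. The filled point is the 1 gene called, *H1f2* at -2.23; dotted lines mark the fold limit of 2, and the points over 1 have wide errors or stay under the limit.

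The variant genes did not pass either rule. *H3f3a* and *H3f3b* encode the same protein, histone H3.3, from separate genes. *H3f3a* (chr1:180628051-180642178, minus strand) was at 440, 702 and 387 untreated and at 334, 481 and 310 with LPS, groups that overlap. Its log2 fold change was -0.42 (SE 0.36, adjusted p = 0.551 by limma), with a range of -0.92 to -0.14 over the alternatives. *H3f3b* (chr11:115912738-115918788, minus strand) was at 26.8, 55.8 and 115 untreated and at 122, 166 and 124 with LPS. Its groups did not overlap, with means of 65.8 ± 44.8 and 137 ± 24.7 (SD, n = 3 each), and the log2 fold change was 1.27 (SE 0.55, adjusted p = 0.317). The H3.3 genes thus had fold changes of opposite sign, and the difference between them was not tested.

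*H3f3a* had more near-identical pseudogenes than *H3f3b*. The 11 pseudogene copies of *H3f3a* in the table summed to 16.6, 11.2 and 15.9 untreated and to 6.82, 15.8 and 4.95 with LPS. The 2 copies of *H3f3b* summed to at most 2.25 in any sample. *H3f3aos*, the antisense RNA at *H3f3a*, was at 0.149, 0.117 and 0.0582 untreated and at 2.55, 0.720 and 0.222 with LPS, a level under 1 in 5 of the 6 samples. Its groups did not overlap (log2 fold change 0.82, SE 0.42, adjusted p = 0.376), and it overlaps *H3f3a*, so its reads are uncertain in the same way.

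*H2az1* and *H2az2* encode the H2A.Z variants, which mark nucleosomes at promoters. *H2az1* (chr3:137570072-137572690, plus strand) was at 27.1, 12.2 and 6.35 untreated and at 33.3, 36.1 and 37.0 with LPS, with means of 15.2 ± 10.7 and 35.5 ± 1.92 (SD, n = 3 each). The groups did not overlap, and the log2 fold change was 1.38 (SE 0.52, adjusted p = 0.249 by limma). A processed pseudogene on chromosome 6, *Gm8203*, is 99.0% identical to *H2az1* over 391 bases and was at 11.7, 43.6 and 305 untreated and at 182, 144 and 103 with LPS, groups that overlap. The order of the untreated samples was reversed between gene and pseudogene. *H2az1* has 21 annotated transcripts and *Gm8203* has 1, so their values are on different scales and no sum was formed, and how reads were split between them was not tested. *H2az2* had no near-identical gene and was at 1.43, 4.19 and 16.9 untreated and at 5.05, 7.09 and 5.34 with LPS (log2 fold change 0.15, SE 0.74, adjusted p = 0.922). Its untreated samples spanned a wider range than its LPS samples.

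The other variant members were at or near 0. *H1f10* (H1.10) and *H1f8*, the oocyte linker histone, were at most 0.310 in any sample. *H1f9* and *H3f4* were listed at 0 throughout. Of the pseudogenes, *H2ac5-ps* was listed at 0, 14.1 and 0 untreated and at 2.35, 0 and 1.76 with LPS, *H3f3c* at 3.06, 0 and 0 untreated and at 1.15, 0 and 0 with LPS, and *H2af-ps2* at 1.00 in LPS replicate 3 alone. *H2af-ps1* was listed at 0 in all samples.

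The groups did not overlap in 8 of the 55 tested members, 7 with LPS above (12.7%, beside 13.1% of all genes tested) and 1 with LPS below (1.82%, beside 9.75%). The median log2 fold change was 0.29 over the 45 tested replication-dependent members and 0.09 over the 6 tested variants, beside 0.01 over all 23049 genes. The first of these medians lies at genes of less than 1 scaled TPM, moves with the pseudocount, and covers only genes that passed the filter on low values. Fold changes were above 0 in 29 of the 45 and in 5 of the 6, and in 12200 of all 23049 genes. Members listed at 0 in every untreated sample, such as *H4c9* and *H2bc8*, entered through LPS alone, so their sign was fixed. The same holds downward for members at 0 in every LPS sample, such as *H2bc7*, so these counts give no direction for the class. Among the variants, *H1f10* (0.000528) and *H1f8* (0.0275) were close to 0. Summed over its genes, with the averaged values of genes with several transcripts as listed, the replication-dependent class stood at 198, 334 and 128 untreated and at 290, 542 and 342 with LPS. Without *H2ac18* and *H2ac19* the sums were 114, 72.6 and 89.2 untreated and 52.0, 70.9 and 81.8 with LPS, and without *H1f2* as well they were 70.1, 39.6 and 36.2 untreated and 46.5, 60.6 and 72.0 with LPS. The groups overlapped in each of these sums. The variants summed to 495, 774 and 525 untreated and to 495, 691 and 476 with LPS and overlapped too.

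More replication-dependent members were above 0 with LPS, 27, 23 and 32 in LPS replicates 1 to 3 against 18, 15 and 18 in the untreated samples. The number of all genes above 0 was higher in the LPS samples too, and the part of this in the count of histone genes was not tested.

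The library kit was for stranded mRNA, and replication-dependent histone mRNAs that end at the stem-loop carry no poly(A) tail. The members were therefore set against how far the annotated gene runs past the stem-loop, with a limit of 100 bases chosen after the values were seen. This distance was taken on the genome to the end of the gene, introns included. For *H2bc4* it was 9518 bases, though its longest transcript has 2414. Of the 60 genes with a stem-loop, 24 are annotated past that limit, and 6 of them were above 0 in all 6 samples and 5 had a mean of at least 5. Of the 36 that end sooner, 2 were above 0 in all 6 samples and 2 had a mean of at least 5, *H2ac18* and *H2ac19*. The 5 were *H1f2*, *H2bc3*, *H2bc4*, *H2bc23* and *H2bc24*. Across the 60 genes Spearman's rho between this genomic distance and the mean value was 0.319, a description over genes that share sequence and libraries. Since genes with several transcripts are listed at an average, the 52 with 1 transcript were also taken alone. Of these, 1 of 16 past the limit (*H1f2*) and 2 of 36 short of it had a mean of at least 5, and rho was 0.257. *H2ac18* and *H2ac19*, each annotated 35 bases past the stem-loop, were the highest of the 52. Nothing in these values tells polyadenylated histone RNA from RNA that ends at the stem-loop.

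**Figure D4:**
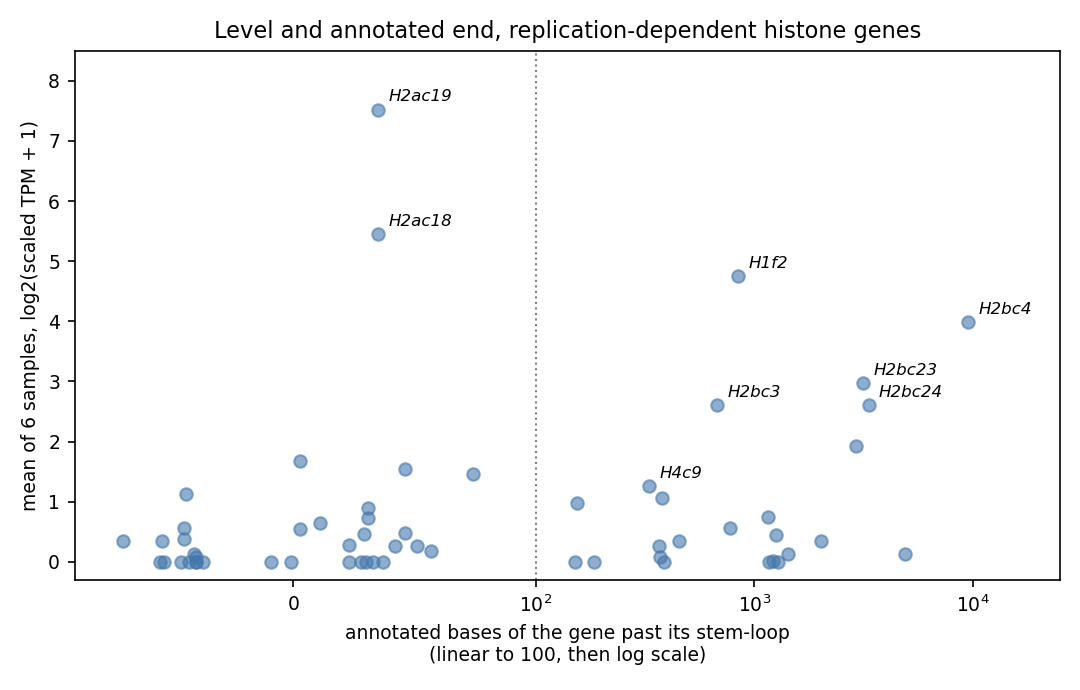
Mean of the 6 samples on the scale log2(scaled TPM + 1) for the 60 replication-dependent genes with a stem-loop. It is set against the genomic bases of the annotated gene past the stem-loop, introns included. The axis is linear to 100, then log, and below 0 the annotation ends before the stem-loop. Each point is a gene, at the listed average where it has several transcripts; *H2ac19* and *H2ac18* stand highest at 35 bases, and the other 5 genes with a mean of at least 5 lie to the right of the dotted line at 100.

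Genes that make, carry and modify histones were taken from lists fixed with earlier results of these data known. Not all listed genes were in the table. It held 15 of 20 for transcription and processing, 20 of 30 for chaperones and remodelling, and 23 of 34 for modification and traps. For replication and division it held 36 of 44, and for histone genes outside the rule 9 of 12. Of 15 tested genes for the transcription of histone genes and the processing of their mRNAs, 1 was called and it was higher (6.67%, beside 2.99% of all genes called in either direction). It was *Lsm10*, a subunit of the U7 particle that cuts histone pre-mRNA, at 2.09, 4.68 and 2.09 untreated and at 17.7, 37.1 and 16.3 with LPS (log2 fold change 2.61, SE 0.46, adjusted p = 0.0533 by limma). *Slbp*, the protein that binds the stem-loop, was at 6.63, 5.28 and 0.709 untreated and at 4.44, 4.93 and 4.47 with LPS (0.37, SE 0.61, adjusted p = 0.755). *Npat*, the coactivator of histone gene transcription in S phase, was at 0.387, 3.20 and 0.281 untreated and at 2.13, 1.30 and 2.26 with LPS (0.55, SE 0.54, adjusted p = 0.589). *Hinfp*, which binds H4 promoters, had a log2 fold change of -0.38 (SE 0.82). *Ncbp1*, the larger cap-binding subunit, had one of 1.35 (SE 0.66). The median of this list was 0.25, beside 0.01 over all genes tested. Only 11073 of those 23049 genes were above 0 in all 6 samples. Over the 9403 genes with a mean of at least 1 the median was 0.126. This limit on the background holds for the medians of the lists below too.

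Of 20 tested histone chaperone and remodelling genes, 2 were called, both higher (10.0%, beside 2.99% of all genes called in either direction). Their median log2 fold change was 0.63, beside 0.01 over all genes tested and 0.126 over those with a mean of at least 1. *Asf1a*, a chaperone that hands H3 and H4 to other assembly factors, was at 0.259, 0 and 0.198 untreated and at 5.68, 3.82 and 3.88 with LPS (2.23, SE 0.31, adjusted p = 0.0336 by limma). *Supt6*, the elongation factor Spt6 that rebuilds nucleosomes behind RNA polymerase II, was at 4.57, 1.74 and 5.10 untreated and at 17.7, 17.6 and 17.9 with LPS (2.05, SE 0.39, adjusted p = 0.0634). It left the first rule in 5 of the 15 alternatives, among them those without untreated replicate 2 (1.68) and without LPS replicate 3 (2.04, adjusted p = 0.234, range over alternatives 0.029 to 0.234). The largest negative values of the list were those of *Ubn2* (-0.34, SE 0.42), of the complex that deposits H3.3, and of *Srcap* (-0.18, SE 0.29), which exchanges H2A for H2A.Z, and neither passed a rule.

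Of 22 tested genes for histone modification and neutrophil traps, 1 was called higher (4.55%, beside 1.69% of all genes) and 1 other was lower at an adjusted p under 0.05 (beside 0.946%). *Kdm6b*, a demethylase of H3 lysine 27, was at 26.1, 62.3 and 34.0 untreated and at 185, 170 and 193 with LPS (2.22, SE 0.38, adjusted p = 0.0522 by limma), and left the first rule without untreated replicate 1 (1.96). *Setd2*, which trimethylates H3 lysine 36, was at 25.4, 29.3 and 26.5 untreated and at 6.51, 8.32 and 6.38 with LPS, where it fell by 1.81 (SE 0.27, adjusted p = 0.0394), short of the fold limit of the first rule. *Padi4*, which citrullinates histones during trap formation, was at 3.09, 35.9 and 1.11 untreated and at 4.84, 13.9 and 4.05 with LPS, groups that overlap widely (0.15, SE 1.12, adjusted p = 0.95). The deacetylase genes *Hdac1* and *Hdac2* had log2 fold changes of -1.04 (SE 0.30, adjusted p = 0.143) and 1.00 (SE 0.89, adjusted p = 0.558). The median of this list was 0.15, beside 0.01 over all genes tested.

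Of 36 tested genes for DNA replication and cell division, 1 was called higher and 2 lower (8.33%, beside 2.99% of all genes called in either direction). The median of their log2 fold changes was -0.04, beside 0.01 over all genes tested. *Dnmt1*, the maintenance DNA methyltransferase, was at 18.4, 17.6 and 18.4 untreated and at 3.10, 3.55 and 1.93 with LPS and fell by 2.33 (SE 0.30, adjusted p = 0.0275 by limma). *Rfc2*, a subunit of the clamp loader, was at 24.8, 16.9 and 50.3 untreated and at 4.71, 4.05 and 4.16 with LPS and fell by 2.44 (SE 0.44, adjusted p = 0.057). *Mki67*, the gene of the Ki-67 protein of dividing cells, was at 1.17, 0.197 and 0.792 untreated and at 6.19, 3.78 and 9.28 with LPS (2.08, SE 0.42, adjusted p = 0.0724). It left the first rule in 6 of the 15 alternatives, among them those without untreated replicate 2 (1.84), LPS replicate 1 (2.07) and LPS replicate 3 (1.81). *Rrm1*, the large subunit of ribonucleotide reductase, was at most 1.32 in any sample.

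Of the histone genes whose symbols the rule leaves out, 8 were tested and none was called. At an unadjusted p under 0.05, 1 was higher, beside 10.3% of all genes. It was *H2aj*, a replacement H2A gene, at 13.2, 2.20 and 16.7 untreated and at 28.8, 25.4 and 37.1 with LPS, where the groups did not overlap (1.74, SE 0.69, adjusted p = 0.275 by limma). *H2ax*, whose protein marks broken DNA, was at 15.9, 8.57 and 2.99 untreated and at 21.5, 10.5 and 15.7 with LPS (0.92, SE 0.60, adjusted p = 0.503). *H4f16* was at 2.60, 4.25 and 1.82 untreated and at 1.60, 1.10 and 1.62 with LPS (-0.63, SE 0.35), and *H2bu2* was listed at 3.43, 0 and 1.88 untreated and at 0.380, 0 and 0 with LPS.

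**Figure D5:**
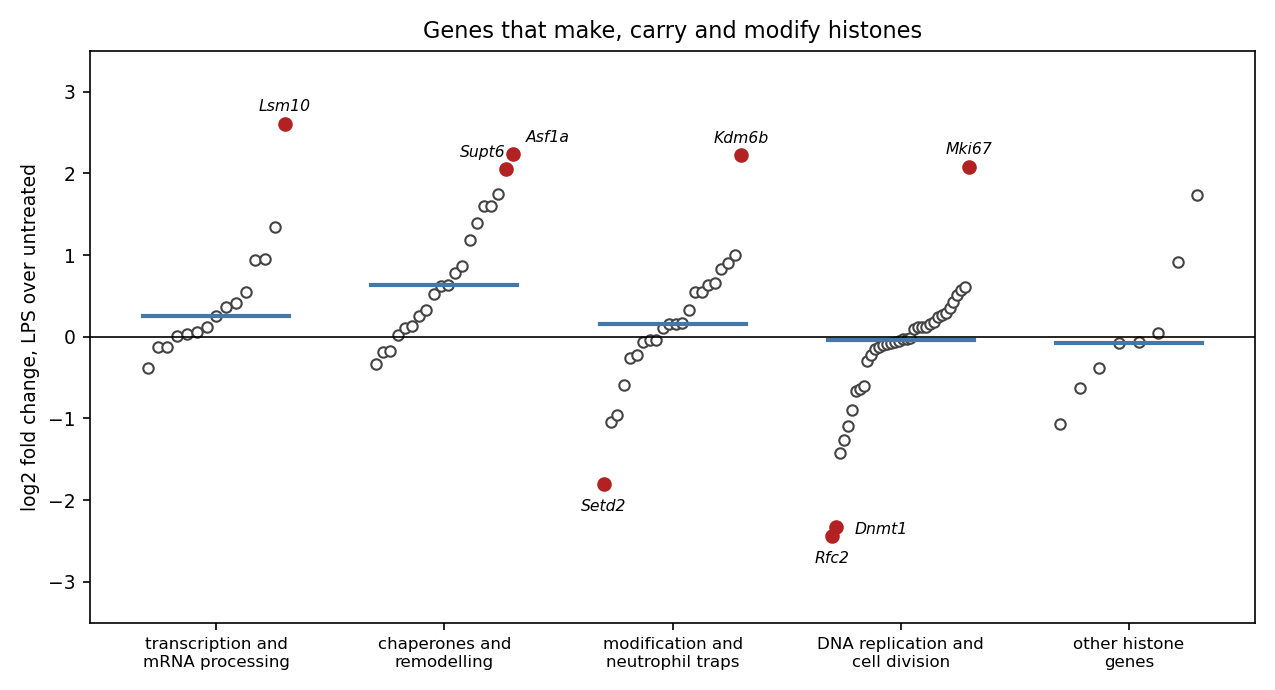
Log2 fold change of LPS over untreated for each tested gene of 5 lists, ordered within a list, with the median of the list as a blue line. Red points passed either rule, *Lsm10*, *Asf1a*, *Supt6*, *Kdm6b* and *Mki67* above 0 and *Setd2*, *Dnmt1* and *Rfc2* below; open points passed neither.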

How the data were processed

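RNA sequencing of 3 untreated and 3 LPS samples was used, grouped by their titles. Per the labels, the submitters' processing notes name fastp, STAR and kallisto with GRCm39 and mm10. By the methods, the authors aligned reads to GRCm39 with STAR, quantified them with Kallisto and normalized them with edgeR. The values deposited by the authors, in a table called one of normalized counts, were read as scaled TPM: the mean TPM of a gene's transcripts, over a factor shared by all genes of a sample. With factors of 0.861 to 1.117, 95.5% to 96.8% of 400 values per sample of genes with 1 transcript returned to 6 digits. In untreated replicate 3, 87.9% of 1352 values written with 14 or more digits ended within 7 decimals once multiplied by a whole number from 2 to 60, as averages would. Read counts cannot be recovered, so depth is unknown and count tests were not run. All columns were used. No matched gene starts beyond base 74579825 of chromosome 13 or lies on a later autosome, so histone genes there were not analysed here.

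Only genes above 0 in at least 1 sample were tested. limma 3.58.1 in R 4.3.3 (lmFit, eBayes with trend, two-sided, no covariates) was fitted to log2(value + 1). Its limits were an unadjusted p under 0.01 with a log2 fold change beyond 2, or a Benjamini-Hochberg adjusted p under 0.05. With 3 against 3 samples, an exact permutation test cannot go below 0.1 and was not used. The test was also run on simulated data in which only genes well above 0 were changed, so that run does not cover members near 0.

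All members but *H2ac14* had a GENCODE M39 gene of the same name. *H2ac14* was placed in the replication-dependent class by its symbol alone, and GENCODE holds an *H2ac14-ps* typed as a pseudogene. Near-identical stretches were found with blastn 2.17.0. Promoters are those of RefSeq on GRCm38.p6, a build other than that of the table, where 66 members matched.

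Named genes were members with a mean of at least 5, those called, the 3 largest fold changes per class and direction, 8 fixed genes, and per list the called genes and the 2 largest in each direction. Other members were named after their values were seen. The members and lists were chosen with earlier results of these data known. Alternatives were pseudocounts of 0.1 and 5, a mean of at least 1, all genes kept, quantile normalization, median centring, no trend, a replicate block and leaving out each sample. Equal sums over protein-coding genes were added after seeing the data. Python 3.11.15 and pandas 2.3.3 were also used.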

Additional observations from a re-analysis of the deposited data

How the results depend on the processing

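The 6 fits that left out a sample gave 260 to 463 genes called higher and 263 to 394 lower, beside 389 and 301. They gave 0 to 2 replication-dependent members higher and 0 to 1 lower, 2 to 6 mRNA processing and chaperone genes higher and 0 to 1 replication genes higher. The medians ran from 0.23 to 0.38 for replication-dependent members and from -0.0369 to 0.46 for variants. With a pseudocount of 0.1 the counts over all genes were 856 higher and 493 lower, and 1 replication-dependent member was called higher. The median of that class was 1.01, beside 0.148 over all genes. With a pseudocount of 5 the counts over all genes were 129 and 168, with 0 replication-dependent members lower, 0 processing and chaperone genes, and 0 and 0 replication genes. The median of the replication-dependent class was then 0.0708, beside 0.001 over all genes. Genes with a mean of at least 1 had medians of 0.51 for the replication-dependent class and 0.71 for the variants, beside 0.126 over all 9403 such genes. Median centring, which moved the median of all genes by -0.20, gave medians of 0.086 and -0.11 and 0 replication genes higher, and the share of higher calls went from 56.4% to 42.8% (310 higher, 414 lower). Equal sums over protein-coding genes gave 220 higher and 522 lower (29.6% higher), and 0 replication genes higher. Under that scaling *H3f3a* stood at -0.92. Adjusted p under 0.05 called 206 genes higher (218 lower), with 1 processing and chaperone gene higher and 0 higher and 1 lower among replication genes. The cause of these shifts was not tested.

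Of 249 alternative values for the 17 named members, 231 kept their direction and their side of the limits, 2 lost the call (*H1f2*), 4 gained it and 12 turned. Those that turned were *H2ac5-ps* (0.56 with a pseudocount of 0.1, -0.89 to 1.07 leaving out a sample), *H2az2* (-0.0129 with a pseudocount of 5, -0.0475 median centred, -0.26 with protein-coding sums, -0.51 to 0.93 leaving out a sample), *H2bc3* (0.82 with a pseudocount of 0.1, -1.02 to 1.18 leaving out a sample), and, leaving out a sample, *H2bc4* (-0.48 to 1.31) and *H3f3c* (-0.67 to 0.37). *Padi4* turned to -0.0892, -0.0492 and -0.24 with a pseudocount of 5, centring and protein-coding sums. Leaving out a sample gave -0.69 to 1.37 for *Padi4*, -1.18 to 0.45 for *Hinfp*, -0.30 to 0.78 for *Slbp* and -0.86 to 0.28 for *Srrt*.

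Same-numbered samples had deviations that correlated at 0.0935, 0.199 and 0.0835, not all over 0.1, and each sample correlated best with its own number, a hint from the data. With the replicate block 387 genes were called higher and 303 lower, and *H1f2* kept its call under the first rule and lost that under the second (adjusted p = 0.127). Depth is unknown, so how far low values limit the members at or near 0 cannot be given.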
